A study of Mus musculus with 6 samples.

Results

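Transcripts of 3 families of splicing proteins were examined in germinal centre B cells: the SR proteins, the hnRNP proteins, and core spliceosome proteins of the Sm and U snRNP, SF3, PRPF and U2AF families. Members were taken by gene symbol alone (symbols beginning with Srsf and a digit, Hnrnp, Sf3a or Sf3b, Snrp, Prpf or U2af), which gave 65 of the 23420 genes listed per library. They comprised 11 SR genes, 18 hnRNP genes and 36 core genes (12 Snrp, 8 Sf3, 13 Prpf and 3 U2af). The cells were sorted from spleens on day 10 after mice were immunized with NP-KLH, a hapten on a carrier protein. Mice of both groups carried hCD20TamCre, a Cre recombinase expressed in B cells and activated by tamoxifen, and both received tamoxifen (1 mg) on day 5, day 7 and day 9. The KO group was BASP1 fl/fl, with both alleles of Basp1 floxed, and the WT group was BASP1 +/+, with 3 libraries in each group. Basp1 encodes a membrane-associated, calmodulin-binding protein, which can also repress transcription together with other factors.

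The spliceosome removes introns from pre-mRNA. Most of its snRNPs carry a ring of Sm proteins around their U snRNA. The SF3 complexes and U2AF recognise the branch point and the 3' splice site, and PRPF proteins act largely in the tri-snRNP and in the catalytic steps. SR proteins bind exonic sequences through RNA recognition motifs and recruit the machinery through a tail rich in arginine and serine, while hnRNP proteins coat nascent RNA and often act against splice site use. Many genes of both families limit their own transcript through exons or introns whose inclusion leads to nonsense-mediated decay. Germinal centre B cells divide rapidly, and splicing factors of these families are known to shape immunoglobulin and receptor transcripts in B cells. The values used here are sums over each gene and do not measure splicing.

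Each library gave log2 CPM values, summing to between 997617 and 1000513 CPM, and the read depth behind them is unknown. The WT and KO values with the same replicate number had the same sum for every gene to within 0.001, so each gene held a mean and 3 paired differences (KO minus WT). All KO values then lie beyond all WT values whenever the 3 differences have one sign. Basp1, the targeted gene, stood at 5.49, 5.90 and 5.52 log2 CPM in WT and fell to 3.27, 2.86 and 3.23 in KO, by -2.51 ± 0.45 (SD over 3 pairs; adjusted p = 3.3e-16 in limma). The labels do not say which part of the gene is floxed. All 13 germinal centre B cell markers lay above 1 CPM, and their summed level was 12265 to 12522 CPM in WT and 11736 to 11967 CPM in KO. Of 8 T cell markers, 7, Cd3e, Cd3d and Cd3g among them, lay under 1 CPM. Their summed level of 189.0 to 202 CPM in WT and 222 to 236 CPM in KO was almost wholly Lck. Stromal markers summed to 38.3 to 40.4 CPM in WT and 31.8 to 33.5 CPM in KO, mostly from Pecam1, with 5 of 6 under 1 CPM. The summed levels of these 3 lists did not overlap between the groups, and neither did the values of 27.7% of all tested genes. The lists for naive B, plasma, dendritic, myeloid, NK and erythroid cells did overlap. Plasma cell markers summed to 2313.5 to 2535.8 CPM in WT and 2148.1 to 2343.3 CPM in KO, mostly from Igj. The part of other cell types in the results below was not tested. Fewer cells of a type and less RNA per cell cannot be told apart in bulk RNA. Whether each library came from its own mouse is not in the labels, so p-values measure the spread between these libraries only. For most genes limma takes that spread largely from other genes of like level. The prior degrees of freedom had a median of 81.2, against 2 residual ones.

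The coding sequences differ between the families in a way that the symbols do not use, though the ranges overlap in part. Serine codons next to arginine codons made up a median of 15.3% of neighbouring codon pairs in the SR genes (4.07% to 23.6%), 0.998% in the hnRNP genes (0.275% to 2.65%) and 0.514% in the core genes (0 to 9.98%). Glycine codons made up a median of 13.8% of codons in the hnRNP genes (7.19% to 27.5%). The median was 7.43% in the SR genes (3.83% to 14.1%) and 6.67% in the core genes (3.53% to 16.9%). Srsf9, whose arginine-serine tail is short, had the lowest share of serine-arginine pairs among SR genes (4.07%), and Srsf2 the highest (23.6%). In the core class Prpf38b (9.98%), Prpf38a (7.40%), U2af1 (6.30%) and Prpf4b (6.16%) exceeded Srsf9. The following stretches of 40 codons, those with the most such codons within 1 exon, show the arginine-serine tail of Srsf5 (codons 185 to 224, exon 8 of 8, chr12:80949721-80949840, plus strand) and of Srsf2 (codons 126 to 165, exon 2 of 3, chr11:116852199-116852318, minus strand). Coordinates are GRCm38 and the sequences are from GENCODE vM21. Capitals mark codons in serine-arginine pairs (34 of 40 codons in Srsf5 and 33 of 40 in Srsf2).
Srsf5: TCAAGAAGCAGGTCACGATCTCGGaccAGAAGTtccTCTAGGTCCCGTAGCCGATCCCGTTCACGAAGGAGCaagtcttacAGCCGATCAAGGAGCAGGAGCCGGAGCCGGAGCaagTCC
Srsf2: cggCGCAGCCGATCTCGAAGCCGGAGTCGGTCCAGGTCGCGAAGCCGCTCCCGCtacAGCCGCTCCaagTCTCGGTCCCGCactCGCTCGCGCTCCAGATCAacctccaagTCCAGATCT

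**Figure D1:**
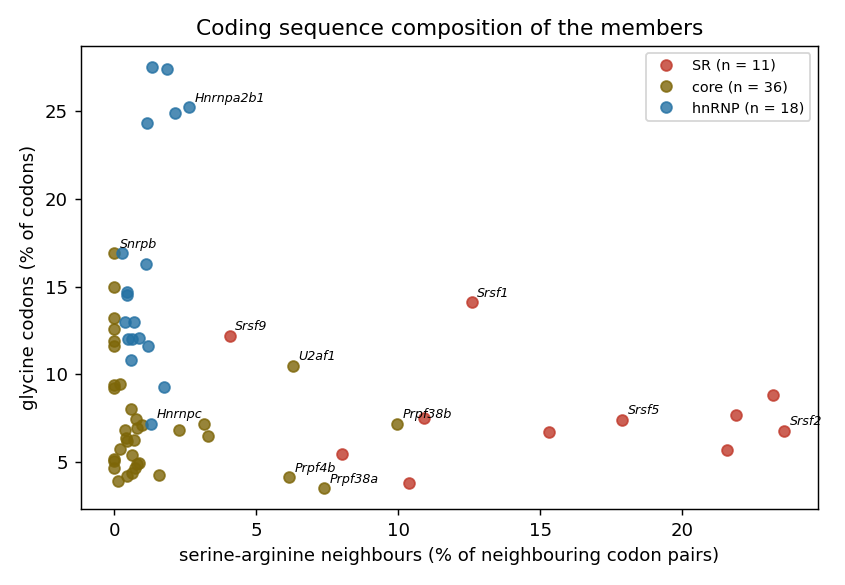
Share of serine-arginine neighbours among neighbouring codon pairs (x axis, %) against the share of glycine codons (y axis, %) in the coding sequence of each of the 65 members, 1 point per gene, coloured by class. SR genes lie to the right (4.07% to 23.6%), and the hnRNP genes with over 20% glycine codons form a group of their own at the top left.

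Transcripts annotated for decay were listed for a larger share of SR genes than of the other classes. At least 1 transcript annotated as a target of nonsense-mediated decay was present for 9 of the 10 tested SR genes, 8 of 18 hnRNP genes (44.4%) and 14 of 34 core genes (41.2%), against 31.1% of the 9771 tested protein-coding genes. Transcripts annotated as retaining an intron were listed for 8 of 10 SR genes, 12 of 18 hnRNP genes and 26 of 34 core genes, against 62.6% of all. The median number of annotated transcripts per gene was 7.5 in the SR class, 9.5 in the hnRNP class and 5 in the core class, against 5 over all, and its part in these shares was not tested. Any such transcripts in the cells count toward the gene values here.

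Most members were well expressed. Of the 65 members 62 had a mean of at least 1 CPM and were tested. The remaining 3 were Srsf12, a neuronal and testis SR protein, at 0.0432 CPM, Prpf40b, a U1-associated factor, at 0.463 CPM, and Snrpn, the neuronal SmN protein, which lay at the floor of the data (0.0299 CPM) in all 6 libraries. Per kilobase of transcript the tested SR genes had a median of 132 CPM (62.3 to 373 CPM per kb), from Srsf10 at the bottom to Srsf3 (322) and Srsf2 (373) at the top. The tested hnRNP genes had a lower median of 55.2 CPM per kb and the core genes one of 66.6. Among hnRNP genes Hnrnpa2b1 (1474 CPM per kb) and Hnrnpk (875) led. The Sm genes Snrpe (523) and Snrpb (505) had the highest levels of the core class, and the lowest were those of Prpf4b, a kinase of the tri-snRNP (9.20), and Prpf39, a U1-associated protein (10.2). In the core class the Snrp genes had a median of 194 CPM per kb, the Sf3 genes one of 94.8 and the Prpf genes one of 24.7.

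Hnrnpa1, which encodes a major hnRNP protein, was listed at 1.24 CPM per kb, the lowest level of the tested members. Its log2 CPM values were 1.08, 1.25 and 1.49 in WT and 1.41, 1.25 and 1.00 in KO, so the groups overlapped. Of the 75-base windows of its transcript 44.4% also occur in a transcript of another annotated gene. In all 13 genes share such windows with it, 12 of them pseudogenes. Its close relative Hnrnpa3, at 19.5 CPM per kb, shares 90.3% of its windows with 37 genes, 35 of them pseudogenes, while Hnrnpa2b1 shares none. Reads from shared windows can have more than 1 origin, and the counting of such reads is unknown here, so levels of these genes are uncertain. Shared sequence did not go with a low level throughout: Hnrnpf, with 49.1% of windows shared, stood at 389.6 CPM per kb, and U2af1, with 53.9%, at 224. Over 40% of windows were shared in 6 tested members, the others being Sf3b4 (43.2%) and U2af1l4 (97.2%). For Srsf5 the share was 23.3%, with 1 pseudogene. The most widely shared coding window within 1 exon is printed for Hnrnpa3 (exon 4 of 11, chr2:75661914-75661988, plus strand, GRCm38), present in 17 other genes. Every base is in capitals since the whole window is shared.
Hnrnpa3: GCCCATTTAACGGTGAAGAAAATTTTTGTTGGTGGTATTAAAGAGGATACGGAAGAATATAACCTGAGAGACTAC

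**Figure D2:**
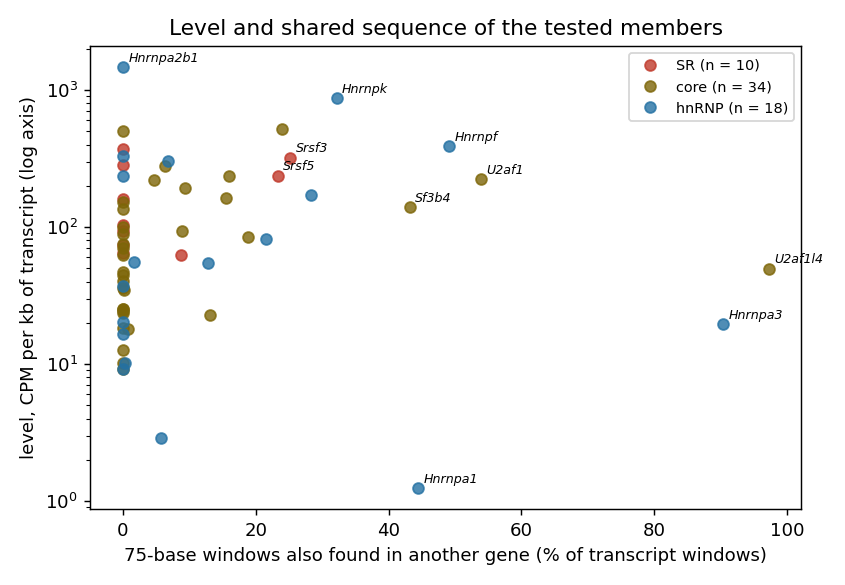
Level of the 62 tested members in CPM per kb of transcript (y axis, log scale) against the share of their 75-base transcript windows that occur in another gene (x axis, %), 1 point per gene, coloured by class. Hnrnpa1 is lowest at 1.24 CPM per kb, while Hnrnpf and U2af1 combine shares near its own with levels above 200 CPM per kb.

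Between KO and WT, Srsf5 was the 1 member called at 5% FDR in limma, lower in KO, and this call was lost under several other settings given with its values below. Without replicate 1, Srsf2, Srsf9 and Hnrnpd were called as well. No member was called without replicate 2 or without replicate 3. At 5% FDR in limma 27 of the 10133 genes tested were called (0.266%), 10 of them lower (0.0987%), and 1 of the 62 tested members was. At an unadjusted p under 0.05 there were 8 members, 5 lower and 3 higher, beside 8.82% of all genes tested (4.66% lower and 4.16% higher). KO and WT did not overlap for 17 of 62 members (27.4%), close to the 27.7% of all tested genes. Differences were small: 41 of 62 members differed by less than 0.1 on the log2 scale (66.1%), against 55.6% of all tested genes. More members had a negative than a positive mean difference (43 against 19, or 69.4% negative, against 48.6% of all tested genes). The median was -0.047 over the members and 0.004 over all tested genes. This lean came mostly from pair 2, where 43 of 62 members were negative (median -0.121), against 32 of 62 in pair 1 (median -0.010) and 32 of 62 in pair 3 (median -0.014).

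**Figure D3:**
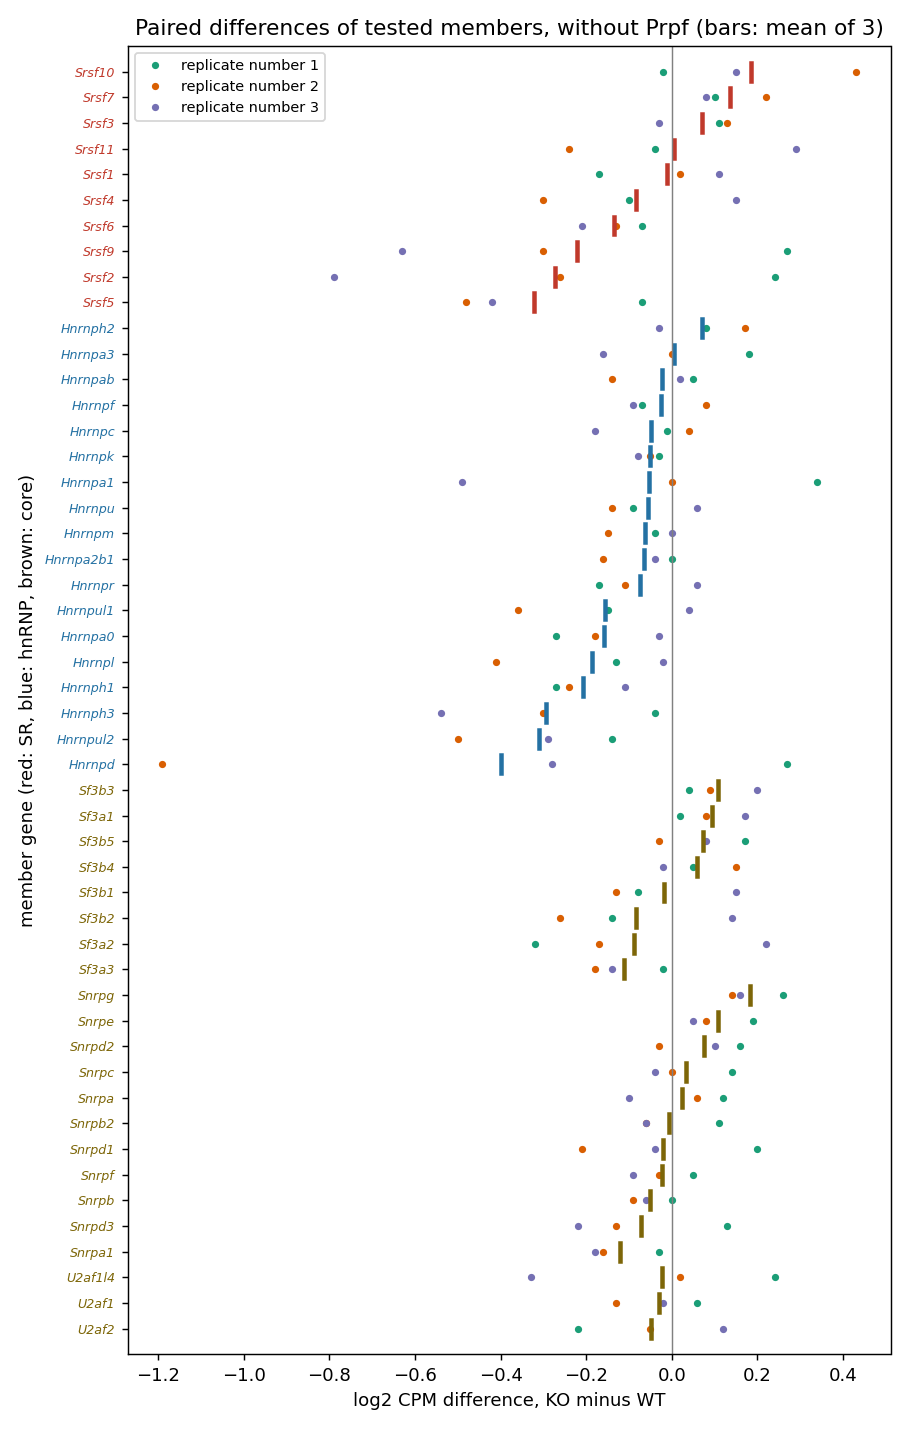
Differences in log2 CPM, KO minus WT, of the 50 tested members outside the Prpf genes (1 row each), with a point per replicate number and a bar at the mean of the 3, ordered by class and mean. Most bars lie within 0.1 of 0, and the points of Srsf2, Srsf9 and Hnrnpd are spread widest, on both sides of 0.

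Srsf5 encodes SRp40, an SR protein of splicing and mRNA export (chromosome 12, 80945504 to 80950507, plus strand). Its values were 8.53, 8.74 and 8.71 log2 CPM in WT and 8.46, 8.26 and 8.28 in KO. All KO libraries lay below all WT libraries, but KO 1 and WT 1 differed by only -0.07, against -0.48 and -0.42 in the other pairs. The geometric mean fell from 404 to 323 CPM, or by -0.32 ± 0.22 in log2 units (SD over 3 pairs; adjusted p = 0.0239 in limma). The limma standard error was 0.072, with 55.6 prior against 2 residual degrees of freedom. The p-value thus leans mostly on the spread of other genes. The fall was called without replicate 1 (at -0.45) and lost without replicate 2 (-0.24, limma adjusted p = 0.852) and without replicate 3 (-0.27, adjusted p = 0.207). Without the replicate block the adjusted p was 0.0848, and with the trend over transcript length removed the fold change was -0.32 and the adjusted p 0.226.

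**Figure D4:**
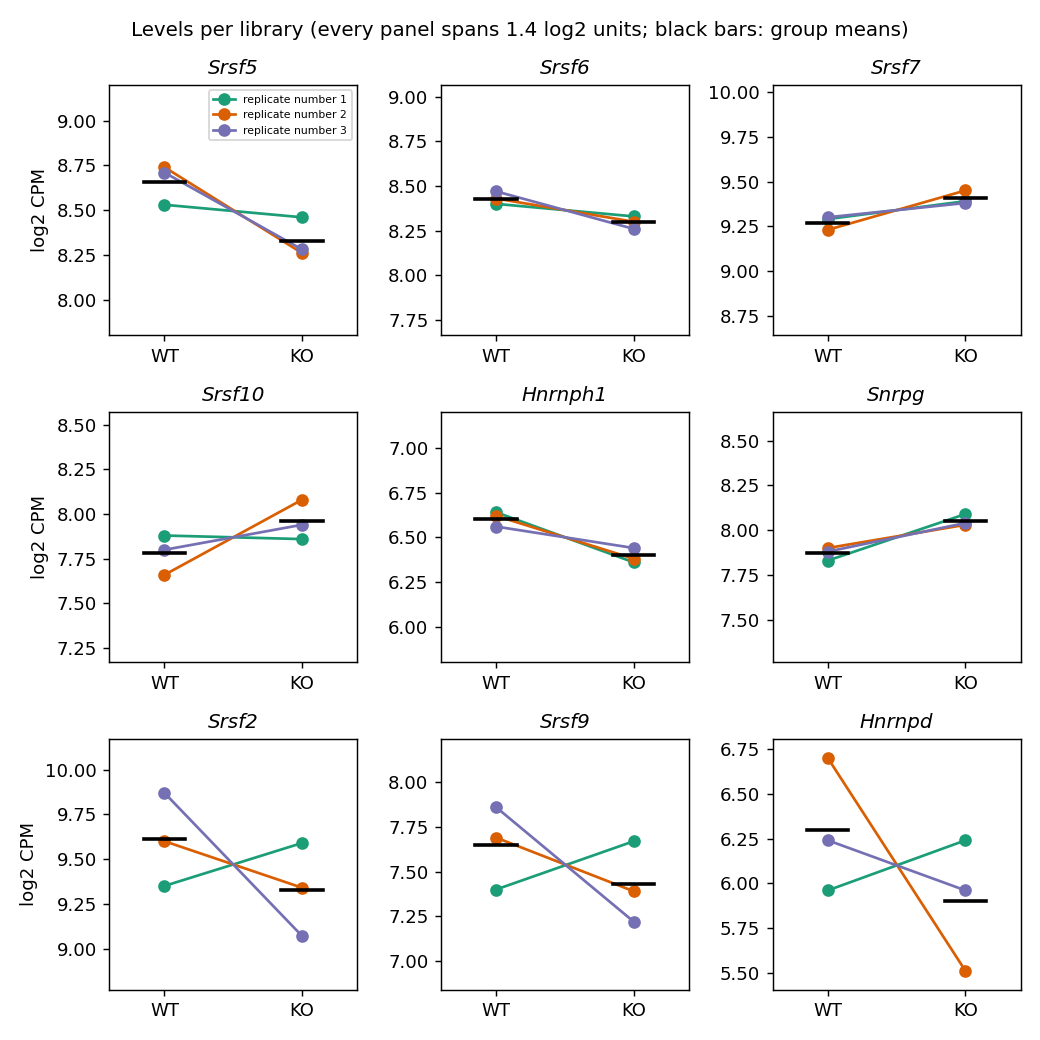
Levels in log2 CPM of 9 members in each library, WT at left and KO at right, with lines joining libraries of 1 replicate number and black bars at the group means; every panel spans 1.4 log2 units. The groups separate for Srsf5, Srsf6, Srsf7, Hnrnph1 and Snrpg, and overlap for Srsf10, Srsf2, Srsf9 and Hnrnpd.

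Among the other SR genes, 9 tested in all, differences went both ways and none passed. With Srsf5 counted, KO and WT did not overlap for 3 of 10 SR genes, against 27.7% of all tested genes. Srsf7, encoding 9G8, an SR protein with a zinc knuckle, was listed at 9.29, 9.23 and 9.30 log2 CPM in WT and 9.39, 9.45 and 9.38 in KO. Its KO values lay above its WT values, with a difference of 0.14 ± 0.071 (SD, n = 3 pairs; limma adjusted p = 0.505). Srsf6, encoding SRp55, had 8.40, 8.43 and 8.47 in WT and 8.33, 8.30 and 8.26 in KO. Here the KO values lay below the WT values, by -0.13 ± 0.071 (limma adjusted p = 0.595). Srsf10, whose product represses splicing when dephosphorylated, had 7.88, 7.66 and 7.80 in WT and 7.86, 8.08 and 7.94 in KO. Its groups overlapped in pair 1, and the difference was 0.19 ± 0.22 (limma adjusted p = 0.389). Srsf3, the smallest of the classical SR proteins, differed by 0.070 ± 0.085. Srsf1, encoding the founding member ASF/SF2, differed by -0.011 ± 0.143, Srsf4 by -0.083 ± 0.226 and Srsf11 by 0.005 ± 0.269. In the last 2 genes, pair 2 lay below 0 and pair 3 above it.

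Srsf2 and Srsf9 behaved differently from pair to pair. Srsf2, encoding SC35, a marker of nuclear speckles, had 9.35, 9.60 and 9.87 log2 CPM in WT and 9.59, 9.34 and 9.07 in KO. Srsf9 had 7.40, 7.69 and 7.86 in WT and 7.67, 7.39 and 7.22 in KO. For both genes WT 3 was the highest library, which makes KO 3 the lowest since the pair sums are fixed. The order of the groups was inverted in pair 1. The paired differences of Srsf2 were 0.24, -0.26 and -0.79, with a mean of -0.27 ± 0.51 (SD, n = 3 pairs; limma adjusted p = 0.891). Those of Srsf9 were 0.27, -0.30 and -0.63, with a mean of -0.22 ± 0.46 (limma adjusted p = 0.890). Without replicate 1 both were called in limma, Srsf2 at -0.53 (adjusted p = 4.8e-07) and Srsf9 at -0.47 (adjusted p = 0.000448). That run leaves out the pair of opposite sign and holds pairs 2 and 3 alone, which differed widely in size for both genes. Its p-values therefore draw mainly on the spread of other genes. Neither gene was called without replicate 2 or without replicate 3. In those runs Srsf2 differed by -0.278 and -0.012, and the smallest difference of Srsf9 was -0.016.

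In the hnRNP class 16 of 18 tested genes had a negative mean difference (88.9%, against 48.6% of all tested genes), yet none passed 5% FDR. The median was -0.064, and the class medians in pairs 1, 2 and 3 were -0.040, -0.144 and -0.059, with 12, 14 and 13 negative genes. KO lay below WT in all 3 pairs for 6 of 18 genes, against 12.5% of all tested genes, and above it in all pairs for 0 (15.2% of all tested genes). Under an unadjusted p of 0.05 there were 4 genes, all lower, beside 4.66% of all tested genes that were lower. These were Hnrnph1, Hnrnph3, Hnrnpl and Hnrnpul2.

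Hnrnph1 and Hnrnph3 encode proteins of the H/F group, which bind runs of G. Hnrnph1 had 6.64, 6.62 and 6.56 log2 CPM in WT and 6.36, 6.38 and 6.44 in KO. All KO values lay below all WT values, by -0.21 ± 0.086 (SD, n = 3 pairs; limma adjusted p = 0.364). Hnrnph3 had 4.36, 4.49 and 4.61 in WT and 4.32, 4.19 and 4.07 in KO, with the groups barely apart in pair 1 and a difference of -0.29 ± 0.25 (limma adjusted p = 0.400). The other members of the group differed by 0.071 ± 0.099 (Hnrnph2) and -0.026 ± 0.095 (Hnrnpf).

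Hnrnpl, encoding a regulator of the CD45 exons in lymphocytes, had 7.29, 7.42 and 7.23 log2 CPM in WT and 7.16, 7.02 and 7.21 in KO. Its groups did not overlap, with a gap of 0.02 in pair 3, and the difference was -0.19 ± 0.20 (SD, n = 3 pairs; limma adjusted p = 0.420). Hnrnpul2, of the U-like proteins, had 3.96, 4.14 and 4.03 in WT and 3.82, 3.64 and 3.74 in KO, a difference of -0.31 ± 0.18 (limma adjusted p = 0.436). Its relative Hnrnpul1 differed by -0.16 ± 0.20. Hnrnpa0 differed by -0.16 ± 0.12 and was lower in all 3 pairs.

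The most abundant hnRNP genes were nearly level. Hnrnpa2b1, whose protein binds RNA in transport and microRNA sorting, had 11.26, 11.34 and 11.28 log2 CPM in WT and 11.26, 11.18 and 11.24 in KO, a difference of -0.065 ± 0.081 (SD, n = 3 pairs). Hnrnpk, a poly(C)-binding protein, differed by -0.052 ± 0.026 and Hnrnpu, a nuclear matrix protein, by -0.056 ± 0.101. Hnrnpk was lower in all 3 KO libraries, by -0.03, -0.05 and -0.08, without passing (limma adjusted p = 0.860). Hnrnpc, which binds runs of U, differed by -0.049 ± 0.112, Hnrnpm by -0.063 ± 0.077, Hnrnpr by -0.075 ± 0.124, Hnrnpab by -0.023 ± 0.101 and Hnrnpa3 by 0.005 ± 0.172. Hnrnpd, encoding AUF1, which binds AU-rich elements in mRNA, had 5.96, 6.70 and 6.24 in WT and 6.24, 5.51 and 5.96 in KO. WT 2 was its highest library, which by the fixed pair sums makes KO 2 its lowest. Pair 1 went the other way, so the difference was -0.40 ± 0.74 (limma adjusted p = 0.889). Without replicate 1 Hnrnpd was called in limma at -0.74 (adjusted p = 1.5e-06). That run holds pairs 2 and 3 alone, at -1.19 and -0.28, so its p-value draws mainly on the spread of other genes. It was not called without replicate 2 or without replicate 3, where its smallest difference was -0.004.

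In the core class 0 of 34 tested genes passed 5% FDR in limma (0.266% of all tested genes), and 1 had an unadjusted p under 0.05 (8.82% of all). The median difference was -0.021, with 21 genes negative (61.8%, against 48.6% of all) and 13 positive. There were 26 genes within 0.1 of 0 (76.5%, against 55.6% of all). All 3 pairs went the same way for 8 genes (23.5%, against 27.7% of all). The gene with an unadjusted p under 0.05 was Snrpg, encoding SmG, a subunit of the Sm ring. Snrpg had 7.83, 7.90 and 7.88 log2 CPM in WT and 8.09, 8.03 and 8.04 in KO. All KO values lay above all WT values, by 0.18 ± 0.064 (SD, n = 3 pairs; limma adjusted p = 0.352). Snrpe, encoding SmE, was also higher in all 3 pairs, by 0.11 ± 0.074 (limma adjusted p = 0.738). The remaining Sm genes differed by 0.075 (Snrpd2), -0.020 (Snrpd1), -0.072 (Snrpd3), -0.023 (Snrpf) and -0.051 (Snrpb). Of the proteins of single snRNPs, Snrpa1 (U2 A') was lower in all pairs, by -0.12 ± 0.082, while Snrpa (U1 A) differed by 0.023, Snrpc (U1 C) by 0.033 and Snrpb2 (U2 B'') by -0.006.

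Within the SF3 complexes of the U2 snRNP, the genes differed by -0.112 to 0.108. Sf3b3 (0.11 ± 0.084) and Sf3a1 (0.093 ± 0.073) were higher in all 3 pairs, and Sf3a3 (-0.11 ± 0.081) was lower in all. Their limma adjusted p were 0.717, 0.803 and 0.721. These are 3 of 8 genes (37.5%), while all pairs went the same way for 27.7% of all tested genes. Sf3b1, the branch point subunit often mutated in blood cancers, had 9.32, 9.34 and 9.20 log2 CPM in WT and 9.24, 9.21 and 9.35 in KO. Its groups overlapped, with a difference of -0.019 ± 0.148 (SD, n = 3 pairs). Sf3b2 differed by -0.084 ± 0.204, Sf3a2 by -0.089 ± 0.276, Sf3b4 by 0.060 ± 0.083 and Sf3b5 by 0.072 ± 0.10. Among U2AF genes U2af1 differed by -0.029 ± 0.096, U2af2 by -0.048 ± 0.169 and U2af1l4 by -0.022 ± 0.289.

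Of 12 tested Prpf genes 8 had a negative difference (66.7%, against 48.6% of all tested genes). None had an unadjusted p under 0.05 (8.82% of all). Prpf38a was lower in all 3 pairs (-0.11 ± 0.048) and Prpf18, a factor of the second catalytic step, higher in all (0.11 ± 0.087). Their limma adjusted p were 0.785 and 0.802. These are 2 of 12 genes (16.7%), against 27.7% of all tested genes. Prpf8, the scaffold at the catalytic centre, differed by 0.075 ± 0.074, Prpf6 by 0.079 ± 0.147 and Prpf31 by -0.045 ± 0.073. Prpf19, a ubiquitin ligase, differed by -0.056 ± 0.175, Prpf3 by -0.060 ± 0.191 and the RS-rich Prpf38b by -0.090 ± 0.289. The kinase Prpf4b differed by -0.026 ± 0.185, Prpf4 by 0.022 ± 0.108 and Prpf39 by -0.009 ± 0.188.

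The pairs did not tell one story. In pair 2 the medians were -0.184 for SR, -0.144 for hnRNP and -0.059 for core genes, all below 0, while in pair 3 they were 0.029, -0.059 and 0.074. The Sf3 and Prpf genes had medians of 0.145 and 0.130 in pair 3, with 2 of 8 and 2 of 12 genes negative, whereas the Snrp genes were highest in pair 1 (0.131, with 1 of 11 negative). All tested genes had medians of 0.003, 0.011 and 0.004 in the 3 pairs. A list of nuclear and non-coding RNAs used as a sign of RNA quality had 9 tested members with medians of -0.258, -0.593 and 0.25 in pairs 1, 2 and 3, and Malat1, named after its values were seen, differed by -0.38, -1.25 and 0.38. Pair 2 was lowest for these RNAs and for the SR, hnRNP, Sf3, Prpf and U2af medians. Pair 3 was highest for these RNAs and for the SR, Sf3 and Prpf medians. Other groups went differently: the Snrp median was lowest in pair 3 (-0.062), and the hnRNP (-0.040) and U2af (0.064) medians were highest in pair 1. The part of RNA quality in these differences was not tested. Without replicate 2 the class medians were 0 (SR), -0.055 (hnRNP) and 0.029 (core).

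**Figure D5:**
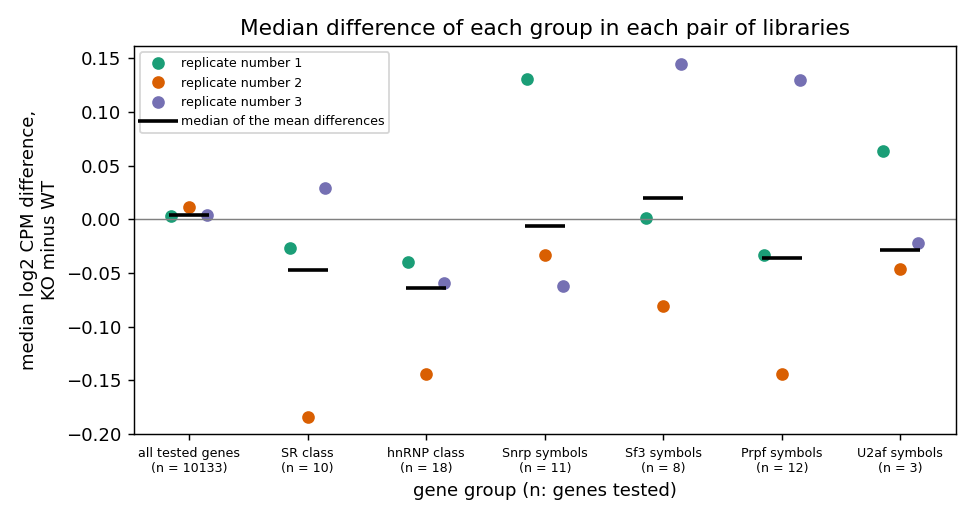
Median difference in log2 CPM, KO minus WT, of each gene group in each pair of libraries (coloured points) and of the mean differences (black bars), with the number of genes tested below each name. All tested genes stay near 0 in every pair, while pair 2 is lowest for SR, hnRNP, Sf3 and Prpf genes.

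Other genes of the splicing pathway were read from 7 further lists with 177 tested genes, of which 2 rose and 1 fell at 5% FDR in limma, beside 0.168% of all tested genes higher and 0.0987% lower. The lists were drawn up with earlier results of these data known, so these calls are not independent evidence. All 3 stood in the list headed kinases, phosphatases and importers of SR proteins, which also holds genes of other roles, D4Wsu53e and Ogt among them. D4Wsu53e (Rsrp1, an arginine- and serine-rich protein) rose by 0.40 ± 0.18 (SD, n = 3 pairs; limma adjusted p = 0.00207). Ogt, which adds O-GlcNAc to nuclear proteins, rose by 0.38 ± 0.27 (limma adjusted p = 0.0239). Cdk13, a kinase of transcription elongation, fell from 12.5 to 7.95 CPM, a change of -0.65 ± 0.34 (limma adjusted p = 0.0367). Of these 3, D4Wsu53e alone stayed called without the replicate block and with the trend over transcript length removed, and it was lost without replicate 2 (limma adjusted p = 0.501). Ogt and Cdk13 were called without replicate 1 and lost without replicate 2 (limma adjusted p = 0.0719 and 0.888) and without replicate 3 (0.217 and 0.0773). In that list 15 of 20 genes were negative, with a median of -0.124. The CLK kinases, which phosphorylate SR proteins, did not pass. Named after their values were seen, Clk1 differed by 0.033 ± 0.221 and Clk2 by -0.38 ± 0.23 (limma adjusted p = 0.344).

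Among SR-related cofactors, 16 of 23 were negative (median -0.093, against 48.6% negative over all tested genes) and 0 passed in limma, with 7 under an unadjusted p of 0.05 (8.82% of all tested genes). The pairs differed, with 15, 19 and 4 of 23 negative and medians of -0.053, -0.236 and 0.156 in pairs 1, 2 and 3. The paralogues Tra2b and Tra2a, which bind GAA-rich exonic enhancers, were both higher in all 3 pairs, by 0.26 ± 0.14 (limma adjusted p = 0.0635) and 0.24 ± 0.12 (limma adjusted p = 0.319). Tra2b had 8.61, 8.48 and 8.50 log2 CPM in WT and 8.72, 8.85 and 8.83 in KO, the KO values all above. Tra2b passed in limma without replicate 1 (0.34, adjusted p = 0.0145) and when low genes were kept (adjusted p = 0.0371). The further core spliceosome genes had 33 of 51 negative (median -0.037), and 1 unadjusted p under 0.05. Dhx15, a helicase of spliceosome release, had the smallest p (0.15 ± 0.070), followed by Ppil1 (-0.14 ± 0.077). The minor spliceosome genes had 10 of 11 negative mean differences (median -0.092), but 3, 10 and 8 of 11 were negative in pairs 1, 2 and 3, with medians of 0.093, -0.100 and -0.162. Pdcd7 (-0.37 ± 0.36) was the 1 gene with an unadjusted p under 0.05, and Armc7 was the positive one (0.17 ± 0.069). In the exon junction and nonsense-mediated decay list 11 of 16 were negative (median -0.063), and 3 had an unadjusted p under 0.05. Of these, Upf1, the central helicase of decay, was at -0.40 ± 0.38 (limma adjusted p = 0.149) and Upf2 at -0.29 ± 0.14. The other, Magohb, went the opposite way, at 0.23 ± 0.21 and higher in all 3 pairs (limma adjusted p = 0.481). Upf1 passed in limma without replicate 1 (-0.62, adjusted p = 0.00145) and when low genes were kept (adjusted p = 0.0454). Other splicing regulators had 24 of 41 negative (median -0.015), and 2 unadjusted p under 0.05, those of Rbm3, a cold-inducible RNA-binding protein (0.17 ± 0.16), and Msi2 (-0.31 ± 0.35). This list holds Hnrpdl, an hnRNP gene under an older spelling that the symbol rule did not take, at -0.097 ± 0.328. The assembly factors of snRNPs, the SMN complex and PRMT5 partners, had 12 of 15 positive (median 0.064), with Gemin4 at 0.23 ± 0.090, the 1 gene with an unadjusted p under 0.05, and Strap at 0.12 ± 0.078. In this list 4, 4 and 8 of 15 were negative in pairs 1, 2 and 3, against 24, 34 and 31 of 51 for the further core genes, 7, 13 and 10 of 16 for the decay list and 20, 24 and 16 of 41 for the other regulators. None of the members of these last 6 lists passed 5% FDR in limma (0.266% of all tested genes). Their counts of negative genes and of unadjusted p under 0.05 stand beside 48.6% and 8.82% of all tested genes.

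Promoter sequence was available for 57 of the 65 members in RefSeq's table (GRCm38.p6). Among those without an entry were Hnrnpul2, Prpf18, Sf3b4, Sf3b5, Snrpb, Snrpd1 and U2af2. In the 250 bases before the start, 7 motifs were searched on both strands: ETS, GC box, NRF1, CCAAT box, E-box, TATA box and CRE half-site. The ETS motif, searched as CCGGAAG, was found in 28.1% of members, against 7.05% of all 27025 promoters and 16.1% of the 7656 promoters of tested genes. The CRE half-site, searched as TGACG, was found in 42.1% of members, against 17.9% and 29.6%. The CCAAT box, searched by its own letters, was found in 12 of 17 hnRNP promoters (70.6%), 3 of 11 SR promoters and 13 of 29 core promoters, against 34.5% of all and 37.9% of those of tested genes. The GC box, searched as GGGCGG, was found in 10 of 11 SR promoters, against 32.9% and 61.0%. The NRF1 motif, searched as GCATGCGC, was found in 3.51% of members, against 2.32% and 5.29%. The E-box, searched as CACGTG, was found in 8.77%, against 6.05% and 9.05%. The TATA box, searched as TATAAA, was also found in 8.77%, against 13.0% and 5.67%. Matches describe letters in these windows and were not tested against the fold changes. The promoters are printed for Srsf5, which fell (chr12:80945249-80945498, plus strand), and for the SR gene and the core gene with the smallest p among members higher in all 3 pairs, Srsf7 (chr17:80207306-80207555, minus strand) and Snrpg (chr6:86371290-86371539, plus strand), with matches to any of the 7 motifs in capitals. Srsf5 holds ETS matches at -90 and -23 from the start, GC boxes at -104, -51 and -28 and a CRE half-site at -16, where the GC box at -28 overlaps the ETS match at -23 by 1 base and the half-site follows directly. Srsf7 holds 1 ETS match at -218, GC boxes at -126, -104 and -41 and an NRF1 match at -64. Snrpg holds an ETS match at -145, a CCAAT box on the other strand at -66 and a pair of overlapping CRE half-sites at -49 and -46. These positions count from the start in RefSeq's table. GENCODE vM21 starts the Snrpg gene at 86371304, inside the printed window, so these matches lie downstream of that start. All 3 share an ETS match, and none holds the exact letters searched for the TATA box or the E-box. Srsf7 does hold the similar letters TATATAAG after its GC box at -41, which the search for TATAAA does not count.
Srsf5: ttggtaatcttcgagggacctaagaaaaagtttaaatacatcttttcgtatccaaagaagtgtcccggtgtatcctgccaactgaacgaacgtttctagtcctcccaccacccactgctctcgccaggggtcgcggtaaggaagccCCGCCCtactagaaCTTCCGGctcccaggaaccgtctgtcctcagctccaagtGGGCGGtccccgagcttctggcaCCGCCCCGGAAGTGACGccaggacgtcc
Srsf7: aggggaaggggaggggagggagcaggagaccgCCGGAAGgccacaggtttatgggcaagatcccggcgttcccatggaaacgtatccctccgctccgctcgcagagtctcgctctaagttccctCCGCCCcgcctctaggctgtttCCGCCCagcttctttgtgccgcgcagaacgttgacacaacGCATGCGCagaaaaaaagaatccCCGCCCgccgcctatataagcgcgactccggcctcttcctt
Snrpg: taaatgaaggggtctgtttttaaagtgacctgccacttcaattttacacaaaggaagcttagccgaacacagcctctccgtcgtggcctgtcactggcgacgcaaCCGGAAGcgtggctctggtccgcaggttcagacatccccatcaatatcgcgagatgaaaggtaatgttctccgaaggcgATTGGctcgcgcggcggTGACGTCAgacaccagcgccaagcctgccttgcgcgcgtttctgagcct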

How the data were processed

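Messenger RNA was sequenced from sorted germinal centre B cells in 3 KO and 3 WT libraries (TruSeq mRNA kit, per the labels' protocols). The submitters' processing notes list STAR 2.6.1a and build mm10, Subread 2.0.1 with featureCounts, limma, and for read quality and trimming FastQC 0.11.7 and Trim Galore 0.6.5. Settings, strand and multiply mapped reads included, are not given in the sources used here. Values as deposited were taken as log2 CPM, since their antilogs sum to 997617 to 1000513 per library; the labels do not state the unit. The values themselves show a nearly common distribution and no remaining difference between replicate numbers, which the check of pair sums rests on. Such steps can shrink the spread and hide the depth.

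KO was compared with WT in limma 3.58.1 (R 4.3.3), with genotype and replicate number in the model, empirical Bayes with variance trend and robust estimation, two-sided, Benjamini-Hochberg at 5% FDR. Genes with a mean log2 CPM of at least 0 and not 1 value throughout were tested (10133). Residual degrees of freedom numbered 2, and the prior ones had a median of 81.2 but lay under 1 for Srsf2, Srsf9 and Hnrnpd. With a replicate number left out fewer residual degrees remain, and p-values then rest still more on the spread of other genes. Since the removal of a replicate effect is built into the values, their correlation cannot show whether numbers pair the libraries, and the block was kept. The fit was tested on simulated data. Group CPM are geometric means. An offset added before the logarithm, if any, would understate fold changes of low genes. Members and lists were chosen with earlier results of these data known. The rule for named genes took members called in any setting or not tested, those with the smallest p, largest change, or highest or lowest level per symbol group, and the called genes and 2 smallest p per list. Clk1, Clk2, Malat1, Magohb and Hnrpdl fall outside it, and other members are given for completeness. The values of 1 member are not reported here. Levels per kb used the principal GENCODE vM21 transcript (GRCm38, the build called mm10), which was found for 65 of 65 members. Alternatives are in the closing section.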

Additional observations from a re-analysis of the deposited data

How the results depend on the processing

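The count of 27 genes called over all tested genes was 95 with no filter on low values, 12 with non-robust moderation, 4 after the length trend was removed, 3 when testing for a fold above 1.2, and 0 without the variance trend (640 genes at an unadjusted p under 0.05), and ranged from 11 to 136 with 1 replicate number left out. Without the replicate block it was 142, and 0 members were called (18 at an unadjusted p under 0.05), so that the block changed the call of Srsf5. The 1 called member, Srsf5, was also lost (0 called) without the variance trend, with non-robust moderation, after the length trend was removed and when testing for a fold above 1.2, and leaving out a replicate number gave 0 to 4 members. It was called with a minimum of 8 CPM, with no filter, with log2(CPM + 1), with each library centred on its median and with genes of 1 value kept. The 3 called genes of the other lists became 6 with no filter, 0 without the variance trend, 1 with non-robust moderation, 1 after the length trend was removed, 0 when testing for a fold above 1.2, and 0 to 6 with a replicate number left out. Basp1 kept its fold change (-2.51) but not its call without the variance trend (adjusted p = 0.150). Causes of these changes were not tested. After the length trend was removed Srsf1 was at 0.003 and Prpf4b at 0.001, each on the other side of 0. Among the genes named in the text and recomputed with a replicate number left out, these changed sign and were called in no setting run, with the range of their differences: Sf3b1 (-0.103 to 0.037), Sf3a2 (-0.243 to 0.025), Snrpf (-0.058 to 0.009), Hnrnpab (-0.060 to 0.035), Srsf1 (-0.073 to 0.067), Prpf39 (-0.073 to 0.099), Prpf4b (-0.110 to 0.073), Hnrnpc (-0.091 to 0.015), Hnrnpa1 (-0.247 to 0.168), Snrpc (-0.020 to 0.070), U2af1 (-0.075 to 0.021), Snrpd1 (-0.128 to 0.077), Sf3b2 (-0.197 to 0.002), Prpf19 (-0.131 to 0.040), Hnrnpa3 (-0.083 to 0.089), Snrpb2 (-0.063 to 0.023), Prpf6 (-0.006 to 0.125), Prpf38b (-0.246 to 0.040), Srsf11 (-0.138 to 0.128), Prpf4 (-0.037 to 0.069), Srsf4 (-0.199 to 0.027), Hnrnpf (-0.080 to 0.008), U2af2 (-0.132 to 0.037), Snrpa (-0.024 to 0.088), U2af1l4 (-0.155 to 0.132), Hnrpdl (-0.227 to 0.088), Clk1 (-0.042 to 0.160). The median of the SR class ranged from -0.045 to 0, that of the hnRNP class from -0.104 to -0.055 and that of the core class from -0.033 to 0.029. The depth of the libraries is unknown, so no limit from depth can be given for the low values of Srsf12, Prpf40b and Snrpn.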

Other observations

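Srsf2, Srsf9 and Hnrnpd stood apart by how much their paired differences disagreed. The SD of the 3 differences was 0.51 for Srsf2, and 0.428% of the 467 tested genes within 1 log2 unit of its level had one as large, with a median of 0.095. For Srsf9 the SD was 0.46, reached by 0.712% of 1965 genes of like level (median 0.112), and for Hnrnpd it was 0.74, reached by 0.269% of 3342 genes (median 0.125). Each of these shares counts the gene itself. Pair 1 was positive and pairs 2 and 3 negative in all 3 genes. Srsf2 and Srsf9 went furthest in pair 3, and Hnrnpd in pair 2. These genes were singled out after their values were seen, and no cause was tested.

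Rpph1, the RNA of RNase P and one of the nuclear RNAs listed for RNA quality, was higher in all 3 pairs by 1.08 ± 0.26 (SD, n = 3 pairs; limma adjusted p = 0.0749), from 1.32 to 2.77 CPM. Snhg5, a host gene of small nucleolar RNAs in the same list, differed by -0.41 ± 0.47 (limma adjusted p = 0.318).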
